A study of Mus musculus with 19 samples.

Results

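The genes that encode cytochrome P450 enzymes of numbered families (Cyp, without Cyp51), UDP-glucuronosyltransferases (Ugt1, Ugt2 and Ugt3) and cytosolic sulfotransferases (Sult) were followed through whole obstructed mouse kidneys. Members were all protein-coding rows of the count table whose symbols belong to these families. There were 141 of them among 54532 genes, 99 Cyp, 21 Ugt and 21 Sult genes. Male mice of 8 to 9 weeks on a C57BL/6J background had the left ureter tied (unilateral ureteral obstruction, UUO), and the kidney was taken on day 12 for bulk RNA-seq. Mice were WT or lacked CD5L in the whole body (CD5L KO), and received PBS or rCD5L (mouse CD5L protein made in CHO-S cells) intraperitoneally once a day, rCD5L at a dose of 0.5 mg for each mouse. The groups held 5 WT + PBS, 5 WT + rCD5L, 4 CD5L KO + PBS and 5 CD5L KO + rCD5L kidneys. By design all 19 kidneys were obstructed, and no group of healthy kidneys was included for comparison. How far the obstruction took hold in each kidney was not tested.

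Cytochromes P450 insert 1 atom of oxygen into lipids, steroids, vitamins and drugs, with electrons that NADPH-cytochrome P450 reductase or ferredoxin deliver. Ugt enzymes attach glucuronic acid and Sult enzymes attach sulfate to such products, which makes them soluble enough to leave in urine or bile. In the kidney, most of these enzymes sit in the proximal tubule, where family 4 Cyp enzymes hydroxylate fatty acids, Cyp2c and Cyp2j enzymes make epoxides of arachidonic acid, and Cyp27b1 and Cyp24a1 activate and degrade vitamin D.

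Sequences at the start sites of 4 members are shown, chosen among the genes named below for which a sequence was available. Cyp1b1 was lower in CD5L KO kidneys, Cyp4b1 had the highest mean level, and Cyp2a5 and Cyp2d26 were among the lowest p-values for rCD5L. No sequence was available for Cyp2d22, Cyp4a12a, Cyp4a14, Cyp4a31, Cyp2j7 and Sult1c2, which are also named for the comparisons. They run from 250 bases before to 50 bases after the RefSeq start (GRCm38.p6). Capitals mark GCGTG, the core that the aryl hydrocarbon receptor binds, AGGTCA, a nuclear receptor core, and GTTAAT, part of the HNF1 element, on either strand. The windows are chr17:79715012-79715311 (minus strand) for Cyp1b1, chr4:115647672-115647971 (minus) for Cyp4b1, chr7:26835089-26835388 (plus) for Cyp2a5 and chr15:82794196-82794495 (minus) for Cyp2d26.
Cyp1b1: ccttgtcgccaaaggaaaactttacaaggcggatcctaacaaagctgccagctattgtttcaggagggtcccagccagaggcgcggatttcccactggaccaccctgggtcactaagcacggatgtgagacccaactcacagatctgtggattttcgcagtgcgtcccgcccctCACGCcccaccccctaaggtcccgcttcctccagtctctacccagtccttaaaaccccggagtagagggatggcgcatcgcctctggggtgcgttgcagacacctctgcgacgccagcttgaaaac
Cyp4b1: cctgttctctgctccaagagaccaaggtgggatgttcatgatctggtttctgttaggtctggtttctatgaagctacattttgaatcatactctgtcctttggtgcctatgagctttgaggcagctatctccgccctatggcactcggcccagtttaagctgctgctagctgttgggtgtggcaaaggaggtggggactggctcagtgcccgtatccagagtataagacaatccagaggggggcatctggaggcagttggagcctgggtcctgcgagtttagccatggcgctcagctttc
Cyp2a5: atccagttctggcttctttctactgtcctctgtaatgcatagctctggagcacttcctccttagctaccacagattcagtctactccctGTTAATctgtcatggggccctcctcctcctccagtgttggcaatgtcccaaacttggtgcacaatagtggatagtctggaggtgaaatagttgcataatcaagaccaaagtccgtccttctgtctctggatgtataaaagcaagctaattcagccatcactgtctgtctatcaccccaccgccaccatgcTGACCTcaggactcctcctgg
Cyp2d26: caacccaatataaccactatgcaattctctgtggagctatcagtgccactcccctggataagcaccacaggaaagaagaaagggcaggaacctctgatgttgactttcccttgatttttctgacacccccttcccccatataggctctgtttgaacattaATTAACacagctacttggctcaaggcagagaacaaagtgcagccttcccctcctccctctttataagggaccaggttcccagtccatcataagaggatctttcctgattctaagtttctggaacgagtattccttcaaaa
Cyp1b1 held 1 GCGTG, Cyp2a5 held 1 AGGTCA and 1 GTTAAT, Cyp2d26 held 1 GTTAAT, and Cyp4b1 held none of these letters in its window. Of 32851 windows in the RefSeq table, 32.4% held GCGTG, 16.3% held AGGTCA and 7.1% held GTTAAT. Windows were found for 112 members (125 windows), of which 18.4%, 25.6% and 19.2% held them. The marked motifs did not overlap, and a match is a description of letters, not of binding.

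Total counts per kidney ran from 17917491 to 23847090, and the members took 0.261% to 1.29% of them. Cd5l had 3 to 15 counts in the WT kidneys. No CD5L KO kidney had a count of it, and a count of 0 is compatible with up to 3. Levels are given below as FPKM, the count per gene length and library size that the authors deposited, which allows levels of different genes to be compared. The tissue label was checked with markers: all 12 proximal tubule markers were above 1 FPKM on average, while the adrenal markers (9 genes, 7 under 1 FPKM on average) summed to 5.33 to 17.0 FPKM and the hepatocyte markers (5 genes) to 4.30 to 46.6 FPKM. CD5L KO + rCD5L replicate 4 stood apart from all other kidneys. Its proximal tubule markers summed to 5735 FPKM, against 391 to 880 FPKM in the other 18 kidneys, its macrophage markers summed to 217 FPKM against 479 to 759, and its fibroblast and myofibroblast markers to 185 FPKM against 283 to 660. Fold changes of the members with rCD5L in CD5L KO are therefore given with and without it, and the effect on the levels is stated where they are described. In whole kidneys, fewer cells of a type and less RNA per cell cannot be told apart.

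Of the 141 members, 28 had no count in any kidney, 67 had counts but a mean under 1 FPKM, and 46 reached a mean of 1 FPKM. These 46 were 33 Cyp, 8 Ugt and 5 Sult genes, and they fell into 26 of the 54 subfamilies. Without CD5L KO + rCD5L replicate 4, 45 members in the same number of subfamilies reached a mean of 1 FPKM, since Cyp2d12 (mean 1.53 FPKM) was then at 0.480 FPKM. The genes of steroid hormone synthesis were at or near 0: Cyp19a1 (aromatase) had no count, and none of the 6 members reached 1 FPKM, the highest being Cyp11b1 at a mean of 0.127 FPKM. The liver genes Cyp7a1, the rate-limiting enzyme of bile acid synthesis, and 7 of 8 Sult2a genes had no count either, and none of the 5 Cyp2b genes passed a mean of 0.0547 FPKM.

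The fatty acid hydroxylase Cyp4b1, the epoxygenase Cyp2j5 and Cyp2e1, the ethanol-inducible P450, were the 3 members above a mean of 100 FPKM. Cyp4b1 was at 119, 151, 227, 154 and 145 FPKM in WT + PBS, at 111, 138, 96.7, 80.5 and 98.5 in WT + rCD5L, at 82.5, 131, 179 and 163 in CD5L KO + PBS, and at 119.7, 121, 136, 1675 and 133 in CD5L KO + rCD5L. The value of 1675 FPKM belonged to replicate 4, and the others overlapped between all groups. Its place at the top rested on that kidney, since Cyp4b1 was above Cyp2j5 in 4 of 19 kidneys and its median (133 FPKM) was below that of Cyp2j5 (174 FPKM). Cyp2j5, by contrast, was above Cyp2e1 in 17 of 19 kidneys. Cyp2e1 had a median of 113 FPKM and ranged from 53.7 FPKM in WT + rCD5L replicate 4 to 789 FPKM in CD5L KO + rCD5L replicate 4.

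The conjugating enzymes were led by Sult1d1, a sulfotransferase of small phenols and amines, with a median of 79.9 FPKM (49.8 to 293). Next came Ugt2b37 (67.4 FPKM, 41.0 to 90.6), Ugt2b38 (46.04 FPKM, 23.96 to 376) and Ugt3a2 (45.97 FPKM, 31.1 to 570). Ugt2b37 was the steadiest of them: it was above Ugt2b38 in 17 of 19 kidneys, and replicate 4 of CD5L KO + rCD5L, at 62.8 FPKM, lay within the range of the others. Sult1a1, the phenol sulfotransferase, and Sult1c2 had medians of 22.2 and 19.8 FPKM, and Sult4a1 and Sult5a1 of 2.46 and 1.47 FPKM. Ugt1a7c, at a median of 11.1 FPKM, shares 54.6% of its exon bases with other Ugt1a genes, so reads in the common exons cannot be assigned to a single gene.

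The other members among the 12 highest were Cyp2a4, a steroid 15-alpha-hydroxylase (median 22.7 FPKM), the fatty acid hydroxylases Cyp4a10 (21.9 FPKM) and Cyp4a31 (23.2 FPKM), Cyp1b1 (29.5 FPKM) and Cyp2j13 (24.7 FPKM). Cyp1b1, which oxidizes estrogens and retinoids and is a target of the aryl hydrocarbon receptor, was the only one of the 3 family 1 members to reach 1 FPKM. The enzymes of vitamin D were both present, the 24-hydroxylase Cyp24a1 at a median of 19.2 FPKM (10.7 to 26.7) and the 1-alpha-hydroxylase Cyp27b1 at 9.72 FPKM (2.58 to 14.02). The sterol 27-hydroxylase Cyp27a1 (21.9 FPKM) and the oxysterol 7-alpha-hydroxylases Cyp7b1 (7.44 FPKM) and Cyp39a1 (6.39 FPKM) made up the sterol group. The orphan Cyp20a1 was at a median of 13.99 FPKM. By the mean over all kidneys Cyp2d9 (median 6.75 FPKM) led the Cyp2d genes and Cyp4a10 the Cyp4a genes, but without CD5L KO + rCD5L replicate 4 Cyp2d22 and Cyp4a31 led them, and Cyp2d22 was above Cyp2d9 in 16 of 19 kidneys. Further subfamilies were led by Cyp2s1 (8.11 FPKM), Cyp4f16 (10.02 FPKM), Cyp4v3 (7.17 FPKM), the epoxygenase Cyp2c23 (3.18 FPKM) and Cyp3a13 (0.992 FPKM). Cyp2c23 was the only one of 15 Cyp2c members at a mean of 1 FPKM or more.

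**Figure D1:**
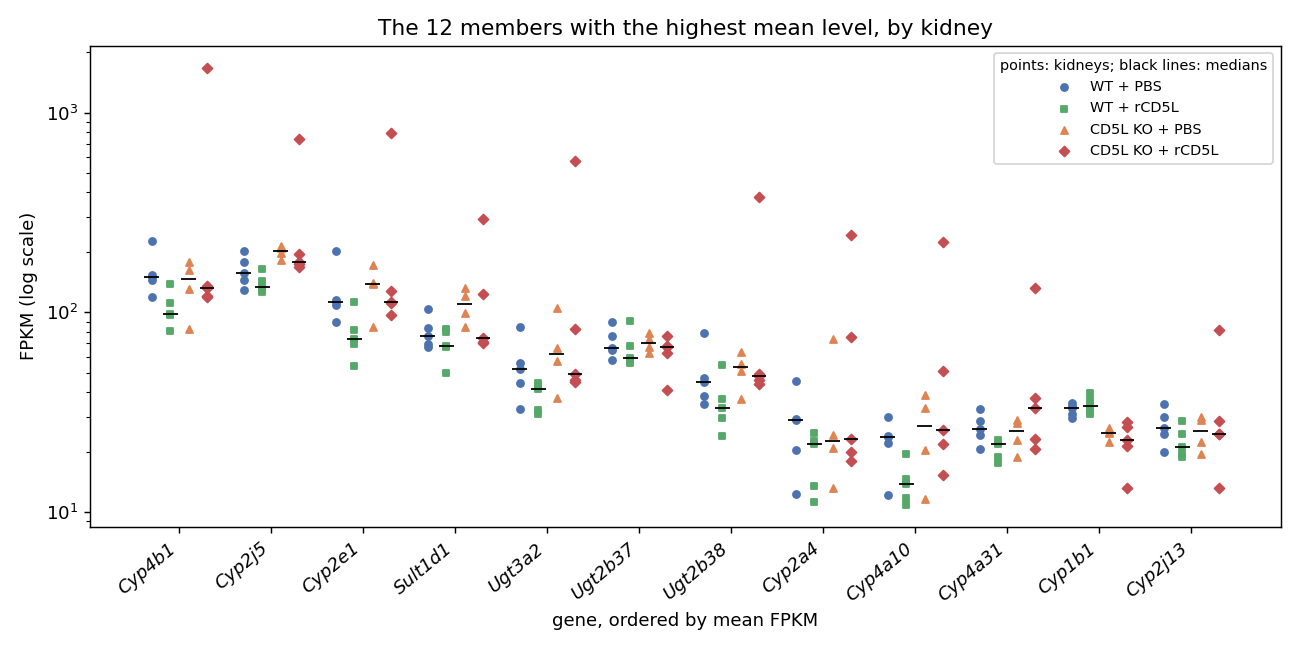
FPKM (log scale) of the 12 members with the highest mean, with 1 point per kidney, colours and symbols for the 4 groups and black lines at the group medians. In 10 of the 12 genes the highest point is CD5L KO + rCD5L replicate 4 (1675 FPKM for Cyp4b1), while for Ugt2b37 it lies within the other kidneys and for Cyp1b1 (13.2 FPKM) it is the lowest.

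The kidney with the high proximal tubule markers also held the highest level of many members. Of the 45 members with a mean of 1 FPKM or more over the other 18 kidneys, 24 (53.3%) were above all of those kidneys in CD5L KO + rCD5L replicate 4 and 12 (26.7%) were below all of them. Of the 13688 genes that passed the same filter, 26.8% were above and 29.7% below, so that the members' share was over that of all genes on the upper side and close to it on the lower side. Against the median of the other 4 kidneys of its group, the ratio among these members was highest for Cyp4a12a (22.6 times), followed by Ugt3a1 (15.6 times) and Cyp4b1 (13.2 times). Cyp2d12, which passed 1 FPKM only through this kidney, was at 20.4 FPKM in it and at 0.0849 to 1.29 FPKM in the others. Cyp2j5, Sult1d1 and Sult1c2 were 4.18, 4.002 and 2.15 times as high. The members at their lowest of the 19 kidneys there, whose share was near the background, included Cyp27b1 (2.58 against 9.14 FPKM), Cyp1b1 (13.2 against 24.9 FPKM), Cyp2d22 (5.80 against 9.04 FPKM), Cyp4f16, Cyp4v3, Cyp20a1, Cyp2s1 and Sult4a1.

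**Figure D2:**
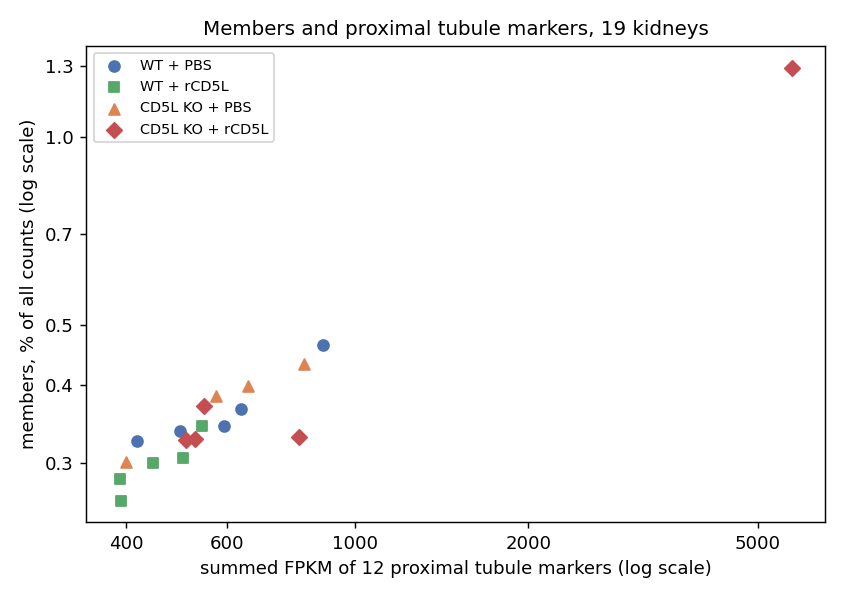
Share of all counts taken by the 141 members (%, log scale) against the summed FPKM of 12 proximal tubule markers (log scale), with 1 point per kidney and colours and symbols for the groups. CD5L KO + rCD5L replicate 4 sits alone at 5735 FPKM and 1.29%, and the other 18 kidneys lie between 391 and 880 FPKM and 0.261% and 0.464%.

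Members also stand together on the chromosomes, where related genes lie side by side. With neighbours up to 500 kb apart joined, 99 members formed 10 clusters of at least 4 genes. The cluster on chromosome 4 from Cyp4x1 to Cyp4b1 (115106323 to 115647723, GRCm38) held 10 members, 6 of them at 1 FPKM or more. The Cyp2j cluster on chromosome 4 (96027534 to 96664154) held 8 members and 5 at that level, and the Ugt2 and Sult1 cluster on chromosome 5 (86889767 to 87591594) 13 and 5. The clusters of Cyp3a, Sult2a and Cyp2c genes held 8, 8 and 14 members and none at that level, because Cyp2c23 and Cyp3a13 lie outside them. Near-identical copies limit some counts: 46 members share at least 1 stretch of 150 bases, the read length, with another member, and 12 share at least 50% of such stretches. Of the genes named below, Ugt1a7c shares 51.6% of them, Cyp4a12a 25.6% and Cyp4a12b 25.9%, the last 2 mainly with each other. Ugt2b38 shares 19.2%, Cyp4a32 8.0%, Cyp2a4 4.2% and Cyp2a5 3.1% (with each other), Cyp4a10 4.0%, Cyp4a31 3.5% and Cyp4f16 2.7%. Cyp1b1, Cyp2d22, Cyp4a14, Sult1c2, Cyp4b1 and Cyp2d26 share none.

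The first comparison asked how the absence of CD5L moved these genes in obstructed kidneys given PBS. In CD5L KO kidneys, Cyp1b1 and Cyp2d22 were lower and Cyp4a12a, a male-typical hydroxylase of arachidonic acid, was higher. These 3 of the 64 members tested (2 lower, 1 higher) passed an adjusted p of 0.05 in edgeR's quasi-likelihood test, a share of 4.69% against 10.5% of all 17579 genes tested (5.40% lower and 5.13% higher). The split of higher and lower calls depended on the tool: DESeq2 called 5 members higher (Cyp2j5, Cyp2j6, Cyp4a12a, Cyp4a12b and Sult1d1) and 3 lower, or 12.5% of the members against 14.9% of all genes, while limma on log2(FPKM + 1) called 0 higher and 2 lower (Cyp1b1 and Cyp2d22), or 3.12% against 8.87%. At an unadjusted p under 0.05, 8 members were higher and 4 lower, or 12.5% and 6.25%, against 12.6% and 14.0% of all genes. No member was higher in CD5L KO without overlap of the groups and 4 were lower, against 6.16% and 8.09% of all genes. The members' share was thus at or under the background in each count. Their median log2 fold change was 0.06, with 37 of 64 above 0, and that of all genes was -0.00.

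Cyp1b1 (ENSMUSG00000024087, chromosome 17, 79706953 to 79715041) was at 35.3, 31.0, 29.5, 34.0 and 33.2 FPKM in WT + PBS and at 25.1, 26.5, 22.6 and 24.8 FPKM in CD5L KO + PBS. All CD5L KO + PBS kidneys were below all WT + PBS kidneys. The fitted log2 fold change was -0.39 ± 0.07 (SE, n = 4 and 5, edgeR adjusted p = 0.00701). Cyp1b1 was at 31.0 to 39.5 FPKM in WT + rCD5L and at 13.2 to 28.4 FPKM in CD5L KO + rCD5L.

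Cyp2d22 (ENSMUSG00000061740, chromosome 15, 82370527 to 82380260), a member of the drug-oxidizing Cyp2d subfamily, was at 13.3, 12.7, 11.6, 14.3 and 12.0 FPKM in WT + PBS and at 9.70, 10.3, 8.33 and 9.42 FPKM in CD5L KO + PBS. The groups did not overlap. The log2 fold change was -0.42 ± 0.08 (SE, n = 4 and 5, edgeR adjusted p = 0.00754). The other members without overlap were Cyp4f16, at 7.04 to 9.82 against 10.02 to 10.9 FPKM, and Cyp4a32 (mean 0.433 FPKM), which were singled out after their values were seen and did not pass the adjusted p in edgeR (0.0652 and 0.207). Cyp4f16 was called lower by DESeq2, and by edgeR without CD5L KO + PBS replicate 2.

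Cyp4a12a (ENSMUSG00000066071, chromosome 4, 115299046 to 115332815) was at 2.27, 1.55, 1.83, 1.19 and 2.39 FPKM in WT + PBS and at 2.37, 2.90, 7.35 and 3.52 FPKM in CD5L KO + PBS. The groups met at 2.37 and 2.39 FPKM, and replicate 3 of CD5L KO + PBS was well above the other kidneys. The log2 fold change was 1.13 ± 0.31 (SE, n = 4 and 5, edgeR adjusted p = 0.0357), and without that replicate it was 0.67 (adjusted p = 0.0842). It was also lost without CD5L KO + PBS replicate 4 (adjusted p = 0.0567) or without WT + PBS replicate 2 (0.0831) or 4 (0.0867), and in limma on log2(FPKM + 1) (0.0817) and log2(FPKM + 0.1) (0.0732).

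**Figure D3:**
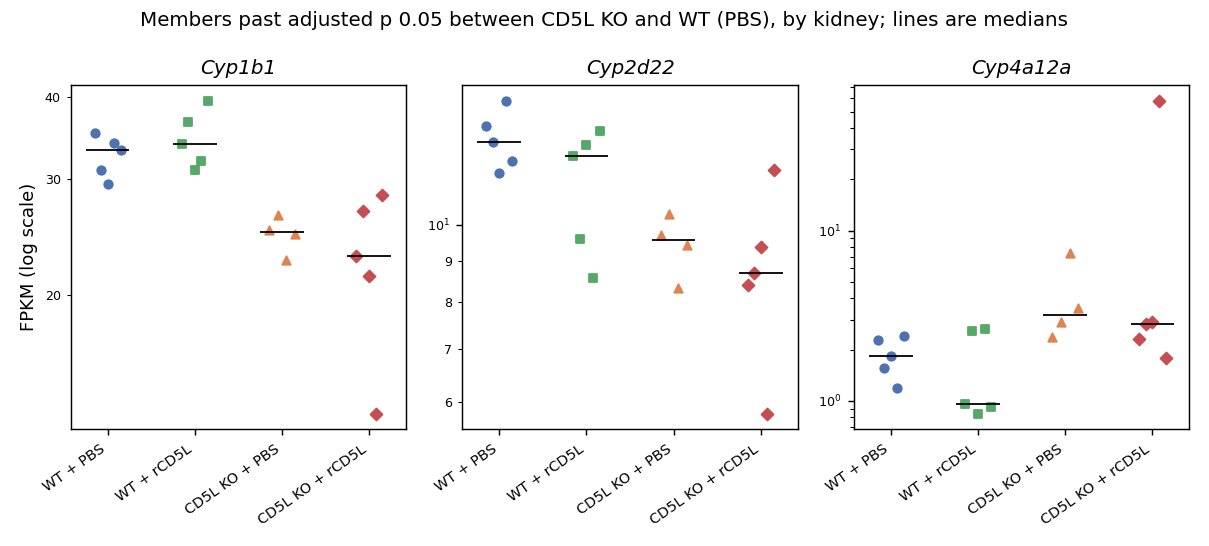
FPKM (log scale) of Cyp1b1, Cyp2d22 and Cyp4a12a, with 1 point per kidney and black lines at the group medians. CD5L KO + PBS kidneys (22.6 to 26.5 FPKM for Cyp1b1 and 8.33 to 10.3 FPKM for Cyp2d22) lie below WT + PBS kidneys (29.5 to 35.3 and 11.6 to 14.3 FPKM), and CD5L KO + rCD5L replicate 4 is the lowest point for Cyp1b1 and Cyp2d22 and the highest for Cyp4a12a (58.1 FPKM).

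Fibroblast and myofibroblast markers moved in the same comparison. All 5 (Col1a1, Col3a1, Pdgfra, Pdgfrb and Acta2) passed the test as lower in CD5L KO + PBS, with a median log2 fold change of -0.61, and their sum was 283 to 392 FPKM against 426 to 660 FPKM in WT + PBS. None of the 12 proximal tubule markers passed it, and their sum overlapped (400 to 815 against 418 to 880 FPKM). Of the other lists, 2 of 4 endothelium markers and 1 of 5 macrophage markers passed it as lower, and 0 of 3 thick ascending limb, 0 of 6 distal tubule and collecting duct, 0 of 3 podocyte, 0 of 5 urothelium, 0 of 3 hepatocyte, 0 of 3 adrenal, 0 of 4 epididymis and 0 of 3 kidney capsule fat markers tested passed it. All 5 urothelium markers had a log2 fold change above 0 (median 0.79, sums of 72.4 to 125 FPKM in CD5L KO + PBS and 9.82 to 74.0 FPKM in WT + PBS), as had all 3 kidney capsule fat markers (0.91, 39.0 to 143 and 19.3 to 124 FPKM). Without WT + PBS replicate 3 the medians were 0.52 and 0.77, and 1 of 5 urothelium and 1 of 6 distal tubule and collecting duct markers passed the test. In the other 3 comparisons no marker of any list passed the adjusted p in edgeR. The part of these markers in the values of Cyp1b1, Cyp2d22 and Cyp4a12a was not tested. By role, 9 of 10 arachidonic acid and small molecule genes of family 2 (Cyp2c, 2e, 2j, 2s and 2u) had a log2 fold change above 0 (median 0.11), as had all 4 Sult1 genes tested (0.23), and 8 of 14 family 4 genes were below 0 (-0.10). Without WT + PBS replicate 3 the median was 0.17 for the family 2 genes and -0.01 for family 4, with 7 of 13 below 0. Without WT + PBS replicate 3, 6 of 65 members (9.23%) passed the test in place of 3, against 11.8% of all genes. With the spread estimated over all 19 kidneys at once, 0 of 71 members passed it (12 of 18454 genes), with adjusted p = 0.303 for Cyp1b1, 0.267 for Cyp2d22 and 0.690 for Cyp4a12a. That fit includes CD5L KO + rCD5L replicate 4. Its biological coefficient of variation was 22.1%, against 12.6% in the fit of the PBS kidneys.

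The genes that serve these enzymes were read from a list of electron donors, transcription regulators, cosubstrate suppliers and other enzymes of oxidation, hydrolysis and conjugation. Of 34 genes, 32 were tested, and only Gusb, the beta-glucuronidase that removes glucuronic acid again, passed the test in CD5L KO against WT, a share of 3.12% against 10.5% of all genes. It was at 14.1 to 14.8 FPKM in CD5L KO + PBS and at 15.4 to 19.5 FPKM in WT + PBS, a log2 fold change of -0.27 ± 0.07 (SE, edgeR adjusted p = 0.0221). None of the 6 electron donors, 11 regulators (with the aryl hydrocarbon receptor Ahr and its partner Arnt) and 7 cosubstrate genes tested passed it, and 19 of the 32 genes were above 0 (median 0.02). Without WT + PBS replicate 3, 2 of the 6 electron donors and 1 of the 8 other enzymes passed the test. In the comparisons with rCD5L and in the interaction, 0 of the 32 passed the edgeR test, with 0 genes of the list at an unadjusted p under 0.05 for rCD5L in CD5L KO, 9 for rCD5L in WT (28.1%, 7 lower and 2 higher, against 16.0% of all genes) and 0 for the interaction. Without CD5L KO + rCD5L replicate 4, 1 electron donor and 1 cosubstrate gene were lower at that p for rCD5L in CD5L KO, and 0 genes of the list were higher. For rCD5L in WT, 24 of the 32 were below 0, with a median of -0.10.

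The next comparison asked what rCD5L did to these genes in WT mice. Most members had a log2 fold change below 0 after rCD5L, and no single one passed the adjusted p in the main edgeR test. In edgeR, 0 of 64 members and 0 (0%) of 17455 genes passed it. The smallest adjusted p of a member was 0.104. At an unadjusted p under 0.05, 17 of 64 members (26.6%) were lower against 7.71% of all genes, and 0 were higher against 8.31%. Of the 64, 52 had a log2 fold change below 0, and their median was -0.22, against 0.00 for all genes. By the absence of overlap, 1 member (Ugt1a7c) was lower against 1.49% of all genes and 0 were higher against 2.10%. Ugt1a7c was at 9.51 to 10.3 FPKM in WT + rCD5L and at 11.02 to 16.4 FPKM in WT + PBS, and was singled out after its values were seen. DESeq2 called 7 members in the same kidneys, all lower (Cyp2a5, Cyp2c23, Cyp4a12b, Cyp4a14, Cyp4a31, Sult1c2 and Ugt1a7c), which is 10.9% of the members against 3.11% of all genes (542), and limma on log2(FPKM + 1) called 0.

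Cyp4a14 (ENSMUSG00000028715, chromosome 4, 115486200 to 115496142), a fatty acid hydroxylase induced through PPAR-alpha, was at 10.6, 17.0, 24.8, 13.9 and 15.2 FPKM in WT + PBS and at 11.5, 7.11, 5.99, 4.30 and 6.91 FPKM in WT + rCD5L. Only replicate 1 of WT + rCD5L overlapped with the PBS group. The log2 fold change was -1.18 ± 0.24 (SE, n = 5 and 5, edgeR adjusted p = 0.104). In CD5L KO mice the gene varied most, from 3.93 to 32.5 FPKM with PBS and from 4.61 to 59.2 FPKM with rCD5L.

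Sult1c2 (ENSMUSG00000023122, chromosome 17, 53829637 to 53846339) was at 23.7, 18.3, 24.1, 16.8 and 21.5 FPKM in WT + PBS and at 15.2, 17.98, 15.4, 15.4 and 14.8 FPKM in WT + rCD5L. Of the WT + rCD5L kidneys, 4 were below all WT + PBS kidneys and replicate 2 was not. The log2 fold change was -0.41 ± 0.10 (SE, n = 5 and 5, edgeR adjusted p = 0.107).

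Cyp2a5 (ENSMUSG00000005547, chromosome 7, 26835305 to 26843548), the coumarin 7-hydroxylase, was at 8.63, 18.2, 24.1, 19.8 and 16.8 FPKM in WT + PBS and at 10.1, 13.5, 6.21, 6.24 and 5.08 FPKM in WT + rCD5L. Replicate 1 was the lowest of the PBS kidneys and lay among the rCD5L kidneys. The log2 fold change was -1.10 ± 0.27 (SE, n = 5 and 5, edgeR adjusted p = 0.113). Without WT + PBS replicate 1, 3 of 66 members (4.55%) passed the adjusted p against 0.222% of all genes (39), all 3 lower: Cyp4a14 (0.0389), Cyp2a5 (0.0430) and Cyp4a10. Leaving out any other replicate called no member and no gene.

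**Figure D4:**
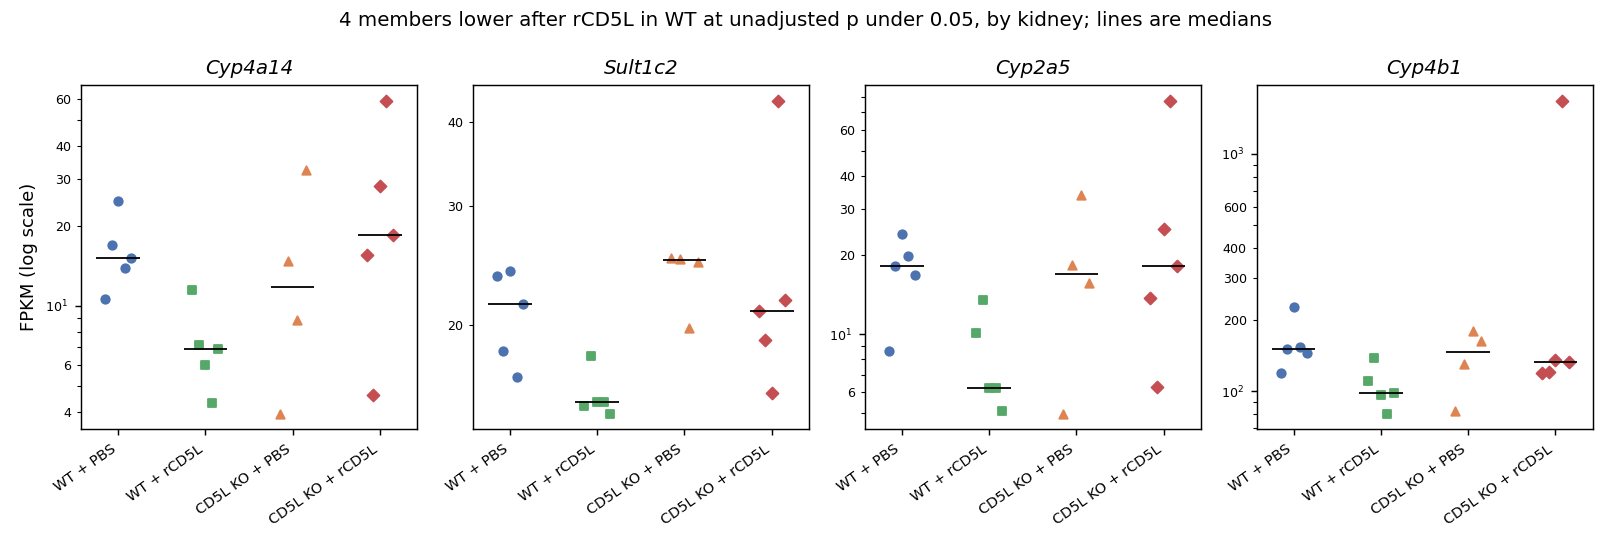
FPKM (log scale) of Cyp4a14, Sult1c2, Cyp2a5 and Cyp4b1, with 1 point per kidney and black lines at the group medians. WT + rCD5L medians (6.91, 15.4, 6.24 and 98.5 FPKM) lie below WT + PBS medians (15.2, 21.5, 18.2 and 151 FPKM), with some overlap in each gene, and CD5L KO + rCD5L replicate 4 is the highest point in each.

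Values below 0 after rCD5L were found in most roles. Of 13 family 4 hydroxylases tested, 11 were below 0 (median -0.36, 7 at an unadjusted p under 0.05), of 9 drug and steroid genes of families 2 and 3, 8 (-0.41, 4 at that p), and of 10 arachidonic acid and small molecule genes, 9 (-0.25, 3 at that p). Both Ugt3 genes (-0.57), 4 of 5 Ugt2 genes (-0.10), 3 of 4 Sult1 genes (-0.22) and all 5 vitamin D and retinoic acid genes (-0.22) lay below 0 as well, while 2 of 3 genes of Sult3 to Sult6 and the 1 Sult2 gene tested lay above it. Without WT + PBS replicate 3 the median moved from -0.57 to -0.33 for Ugt3, from -0.25 to -0.15 for the arachidonic acid and small molecule genes and from -0.10 to -0.02 for Ugt2. In that fit 2 of 9 drug and steroid genes, 6 of 13 family 4 genes and 2 of 10 arachidonic acid and small molecule genes were lower at an unadjusted p under 0.05. By position, all 7 tested genes of the Cyp4 cluster on chromosome 4 were below 0 (median -0.61), as were all 6 of the Cyp2j cluster (-0.25). Cyp1b1 was at 31.0 to 39.5 FPKM after rCD5L and at 29.5 to 35.3 FPKM with PBS.

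In the same comparison all 12 proximal tubule markers had a log2 fold change below 0 (median -0.47), 6 of them at an unadjusted p under 0.05. None of these markers passed the adjusted p in edgeR. Their sum was 391 to 542 FPKM in WT + rCD5L and 418 to 880 FPKM in WT + PBS, in which replicate 3 was the highest. Without that kidney the 12 markers were still below 0 (median -0.24), and 50 of 64 members were below 0 (median -0.19), 12 of them (18.8%) at an unadjusted p under 0.05 against 6.21% of all genes, while 1 was higher at that p (1.56%) against 7.77%. The part of the tubule markers in the members' values was not tested. With all 19 kidneys in 1 fit, 1 member (1.41%) was lower at an unadjusted p under 0.05 in place of 17, against 1.28% of all genes. That fit includes CD5L KO + rCD5L replicate 4. Its biological coefficient of variation was 22.1%, against 11.6% in the fit of the WT kidneys.

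**Figure D5:**
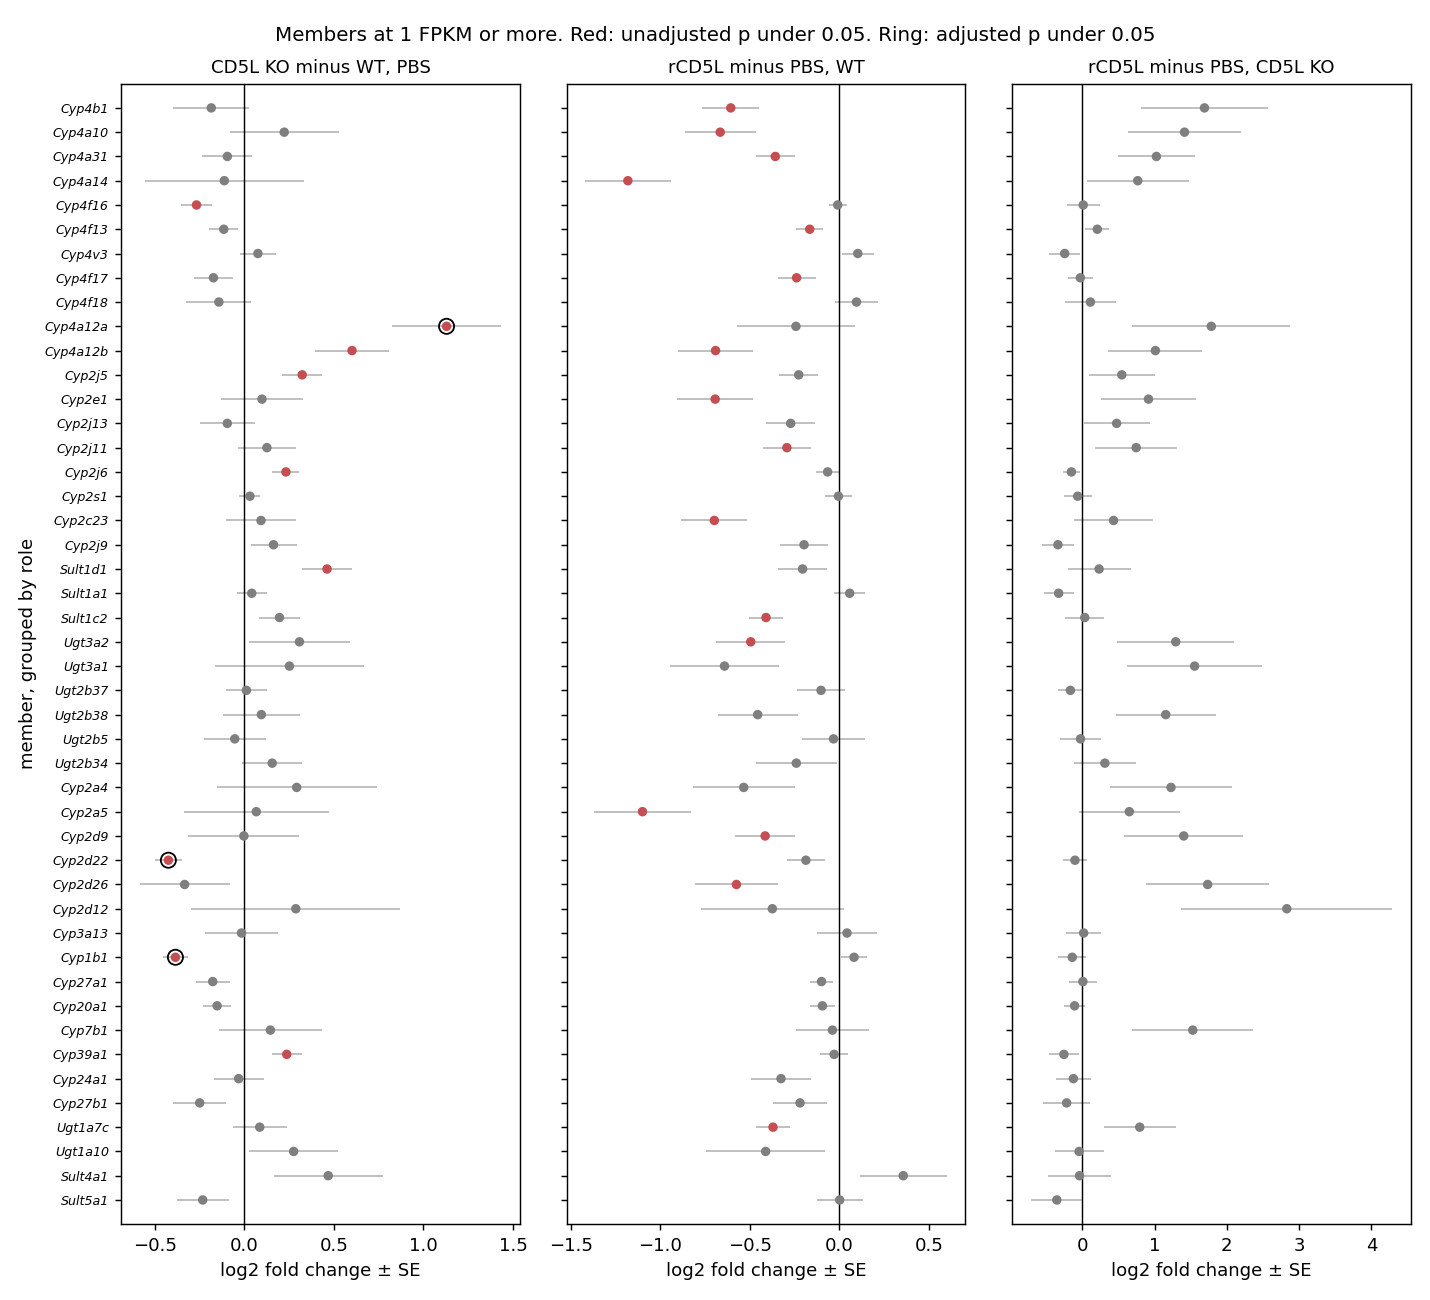
Log2 fold change with its SE (edgeR) of the 46 members at 1 FPKM or more, ordered by role, in 3 comparisons on separate horizontal scales. Red points have an unadjusted p under 0.05 and rings an adjusted p under 0.05, which only Cyp1b1, Cyp2d22 and Cyp4a12a have in the first panel, and the long bars of the last panel come with a biological coefficient of variation of 28.8% against 12.6% and 11.6% in the first and second.

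In CD5L KO mice, rCD5L gave no call of a member. In edgeR, 0 of 67 members and 0 (0%) of 17467 genes passed the adjusted p, and DESeq2 called 0 members and 10 genes. At an unadjusted p under 0.05, 0 members were higher and 1 was lower, against 1.40% and 1.47% of all genes, and the groups overlapped for every member, against 1.26% of genes higher and 1.13% lower without overlap. The median log2 fold change of the members was 0.11 with all kidneys and -0.10 without CD5L KO + rCD5L replicate 4, with 39 of 67 above 0 in the first case and 27 of 66 in the second, where 4 members (6.06%) were lower and 0 higher at an unadjusted p under 0.05, against 2.62% and 2.92% of all genes. The proximal tubule markers went from a median of 1.36 to 0.02 on leaving that kidney out.

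The member with the lowest p was Cyp2j7 (ENSMUSG00000081362, chromosome 4, 96195197 to 96236659), a minor gene of the epoxygenase subfamily. It was at 0.918, 1.09, 0.649 and 0.918 FPKM in CD5L KO + PBS and at 0.409, 0.489, 0.459, 0.821 and 0.448 FPKM in CD5L KO + rCD5L. Only replicate 4 of the rCD5L group overlapped with the PBS group. The log2 fold change was -0.78 ± 0.30 (SE, n = 5 and 4, edgeR adjusted p = 0.897), and without replicate 4 it was -0.99 ± 0.27 (adjusted p = 0.763). Cyp2d26, of the Cyp2d subfamily, and Cyp4a31 came next, at 1.73 ± 0.85 and 1.03 ± 0.53 with all kidneys and at 0.09 ± 0.29 and 0.21 ± 0.20 without replicate 4. Cyp2d26 was at 4.54, 4.41, 10.2, 72.9 and 6.77 FPKM in that group and at 3.59 to 7.08 FPKM in CD5L KO + PBS.

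The interaction asked whether the change with rCD5L differed between the genotypes. In edgeR, 0 of 71 members and 0 (0%) of 18454 genes passed the adjusted p, and DESeq2 called 0 of both. At an unadjusted p under 0.05, 14 members (19.7%) were higher against 4.41% of all genes and 0 were lower against 1.84%. The members' median was 0.39, against 0.02 for all genes. On the same kidneys, the members higher at that p were 15 with RLE factors, 10 with DESeq2, 5 with the replicate block (1 lower) and 1 with limma on log2(FPKM + 1). Of all 18454 genes, 1172, 1285, 994 and 890 were at that p in either direction in these fits. The lowest p-values belonged to Cyp4b1 (2.32 ± 0.90), Cyp2d26 (2.33 ± 0.91) and Cyp4a31 (1.40 ± 0.55, SE, n = 19, edgeR adjusted p = 0.731 for each). These values rested on CD5L KO + rCD5L replicate 4: without it they were 0.47 ± 0.27, 0.66 ± 0.40 and 0.57 ± 0.23 (adjusted p = 0.853 for each), the members' median was 0.13, and 1 member (1.41%) in place of 14 was higher at an unadjusted p under 0.05, against 2.95% of all genes. The proximal tubule markers went from a median of 1.88 to 0.34 in the same step. A difference between the genotypes in the response to rCD5L was therefore not detectable for any member at this number of kidneys.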

How the data were processed

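Whole obstructed kidneys of 19 mice were measured by bulk RNA-seq, and groups and replicate numbers came from the sample labels. The deposited count table held whole-number counts per gene that the authors had not normalized, from random-primed paired-end libraries trimmed with Trimmomatic, aligned to GRCm38 (mm10) with HISAT2 and counted with featureCounts. Versions, strand setting and the treatment of reads with several matches are not given in the sources used here, so paralogs and antisense partners may share reads. The authors also deposited FPKM values, the same counts divided by gene length and by a library size of 1.20 to 1.29 times the TMM-scaled total. The members and gene lists were chosen with earlier results of these data known.

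The count test was edgeR 4.0.16 under R 4.3.3 (TMM, filterByExpr with a minimum count of 10, glmQLFit, glmQLFTest) over all genes, with Benjamini-Hochberg adjustment and a call at 0.05. A fit held the kidneys of its own comparison alone, and the interaction held all 4 groups. Of the members, 64, 67, 64 and 71 passed the filter for CD5L KO against WT, rCD5L in CD5L KO, rCD5L in WT and the interaction, and 63 passed it in all 4. The fits were tested on simulated data. Alternatives were DESeq2 1.42.0, RLE factors, 2 other filters, limma 3.58.1 on log2(FPKM + 1) and log2(FPKM + 0.1), the replicate number as a block, all 19 kidneys in 1 fit, TMM-scaled counts for levels, and leaving out each replicate.

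The text names, for levels, the 12 members with the highest mean FPKM and the highest member of each subfamily at 1 FPKM or more. For each comparison it names the called members and the 3 with the smallest p, and the called genes of the partner list. Gene models and promoters came from GENCODE vM21 and RefSeq tables of GRCm38. The kidneys differed by a chi-square of 7.14 to 344 per degree of freedom over the 36 pairs within groups, so each counted as 1 sample. With 1 ureter tied per mouse, each kidney stands for a separate animal. Limits from a count of 0 cover counting error only. Marker lists were proximal tubule, thick ascending limb, distal tubule and collecting duct, podocyte, endothelium, fibroblast and myofibroblast, macrophage, urothelium, hepatocyte, adrenal, epididymis and kidney capsule fat, of which those that moved with the members or stood in for neighbouring tissue are given beside the results.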

Additional observations from a re-analysis of the deposited data

Results flagged for a closer look

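The levels of 19 named members were looked at in each of the 4 groups, 76 groups of values in all, for a kidney far from the rest of its group. If such groups were independent, chance alone would set a kidney apart in about 1 in 20 of them. They share kidneys, and the genes were named by means and p-values that include CD5L KO + rCD5L replicate 4. The rate is therefore no measure for the cases below. In 20 cases a kidney stood apart, and 15 of these were CD5L KO + rCD5L replicate 4 as the highest of its group.

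In that kidney, the fatty acid hydroxylases Cyp4b1 (1675 FPKM), Cyp4a10 (226 FPKM), Cyp4a31 (133 FPKM) and Cyp4a12a (58.1 FPKM) stood apart. So did the family 2 genes Cyp2j5 (736 FPKM), Cyp2e1 (789 FPKM), Cyp2j13 (81.8 FPKM), Cyp2j7 (0.821 FPKM), Cyp2a4 (244 FPKM), Cyp2a5 (77.7 FPKM) and Cyp2d26 (72.9 FPKM). The conjugating enzymes Sult1d1 (293 FPKM), Sult1c2 (43.0 FPKM), Ugt3a2 (570 FPKM) and Ugt2b38 (376 FPKM) completed the 15. The proximal tubule markers of the same kidney summed to 5735 FPKM, against 391 to 880 FPKM in the other 18.

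The other 5 cases were spread over groups. WT + PBS replicate 3 was highest for Cyp2e1 (204 FPKM) and Ugt2b38 (78.7 FPKM), and it also had the highest proximal tubule sum of the WT kidneys (880 FPKM). CD5L KO + PBS replicate 1 was lowest for Cyp2d26 (3.59 FPKM), with the lowest proximal tubule sum of its group (400 FPKM). For Sult1c2, WT + rCD5L replicate 2 was highest (18 FPKM) and CD5L KO + PBS replicate 3 was lowest (19.8 FPKM). Both kidneys had the highest proximal tubule sum of their group (542 and 815 FPKM).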

How the results depend on the processing

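For CD5L KO against WT, the 3 called members became 8 of 64 with DESeq2 (5 higher and 3 lower, 12.5%, against 14.9% of all genes), 7 with the replicate block (5 higher and 2 lower, 10.9%, against 12.1%), 2 with limma at either pseudocount (0 higher) and 0 with all 19 kidneys in 1 fit, and 2 to 6 when a replicate was left out, with 5 (7.58%, against 5.83%) without CD5L KO + PBS replicate 1. Cyp1b1 and Cyp2d22 were among the calls in every alternative but the fit of all 19 kidneys. For rCD5L in WT, the 0 called members became 7 with DESeq2, 5 with no filter on low counts (4.67%, against 0.43% of all genes) and 3 without WT + PBS replicate 1. Leaving out any other replicate called 0 members. For rCD5L in CD5L KO and for the interaction, the count stayed at 0 under all alternatives, whose smallest adjusted p of a member was 0.397 and 0.395. The median log2 fold change of the members was 0.02 to 0.10, -0.10 to 0.26, -0.29 to -0.16 and 0.13 to 0.48 in the 4 comparisons (CD5L KO against WT, rCD5L in CD5L KO, rCD5L in WT, interaction) when a replicate was left out. With limma on log2(FPKM + 1) and log2(FPKM + 0.1) it turned from 0.11 to -0.0028 and -0.015 for rCD5L in CD5L KO (34 and 35 of 67 members below 0), and it was 0.019 and 0.037 in place of 0.06 for CD5L KO against WT and -0.15 and -0.21 in place of -0.22 for rCD5L in WT. For the interaction it was 0.087 and 0.22 with limma on log2(FPKM + 1) and log2(FPKM + 0.1), 0.23 with the replicate block and 0.25 without WT + rCD5L replicate 1, in place of 0.39. With all 19 kidneys in 1 fit, CD5L KO + rCD5L replicate 4 included, 10 members (14.1%) were higher at an unadjusted p under 0.05 for rCD5L in CD5L KO in place of 0, against 8.19% of all genes in place of 1.40%. The 3 members named for each comparison by p or call kept their direction under all alternatives. Among 35 named members, 17 changed sign for rCD5L in CD5L KO without CD5L KO + rCD5L replicate 4, 12 of them from higher to lower, such as Cyp4b1 (1.69 to -0.13), Cyp4a12a (1.78 to -0.72) and Ugt3a2 (1.29 to -0.25), and none of these passed the adjusted p in edgeR in either fit. The level filter without that kidney was chosen after seeing the data. No source says that replicate numbers pair the kidneys. Correlations of same-numbered kidneys ran from -0.05 to 0.12 for CD5L KO against WT, from 0.02 to 0.17 for rCD5L in CD5L KO, where 3 of 4 pairs were over 0.1, and from -0.05 to 0.00 for rCD5L in WT, and 4 of 8, 2 of 8 and 0 of 10 kidneys correlated best with their own number. With the replicate block, 768 genes were at an unadjusted p under 0.05 for rCD5L in CD5L KO in place of 502, no member was called, and the members' median was -0.00 in place of 0.11. The cause of these moves was not tested.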

Other observations

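Among all members, 8 of the 9 Ugt1a genes (with Ugt1a7c), both Cyp3a41 copies, Ugt2a1 and Ugt2a2 share at least 50% of their stretches of 150 bases with another member. Their separate levels depend on how shared reads were counted.

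Markers of neighbouring tissue varied between kidneys. Kidney capsule fat markers (3 genes) summed to 11.8 to 143 FPKM, epididymis markers (5 genes) to 4.47 to 33.9 FPKM and urothelium markers (5 genes) to 9.82 to 125 FPKM over the 19 kidneys. The epididymis markers were 3 of 4 at an unadjusted p under 0.05 for rCD5L in WT (median log2 fold change 0.75) and 3 of 4 in CD5L KO (1.40, and 1.39 without CD5L KO + rCD5L replicate 4), and none passed the adjusted p in edgeR.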
